A study of Homo sapiens with 7 samples.

Results

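The lines established from mixed cellularity Hodgkin lymphoma (HL), KM-H2 and L-1236, were set against the lines established from nodular sclerosis, HDLM-2, L-428, L-540, U-HO1 and SUP-HD1. These are 2 and 5 of the 7 lines of the series, so every array entered the comparison. The lines were chosen by name, since the labels give the line but not the histological subtype of the tumour it came from. Each line is an untreated culture of malignant cells from a single patient and was profiled on a single Affymetrix HG U133 Plus 2.0 array, with 54675 probe sets given as log2 values. The series was collected for a study of homeobox genes in HL, and the arrays came from a pair of laboratories whose share of the lines is not given. Laboratory and subtype therefore cannot be told apart.

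In classical HL the malignant Hodgkin/Reed-Sternberg (HRS) cells are rare and are surrounded by cells they attract. Nodular sclerosis is defined by bands of collagen around nodules of lymph node, and mixed cellularity by a diffuse infiltrate of lymphocytes, plasma cells, eosinophils and macrophages without such bands. Both definitions rest on the surrounding tissue, which a cell line has lost, so no marker in these arrays can check the subtype of a line. Further differences run along with the grouping. KM-H2 and L-1236 both derive from B-cells, whereas HDLM-2 and L-540, on the nodular sclerosis side, derive from T-cells.

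Every value below is a level or a difference on the log2 scale of the deposited values, on which a difference of 1 is a 2-fold change, and all differences are mixed cellularity minus nodular sclerosis. Where 5 levels of nodular sclerosis lines follow each other, their order is HDLM-2, L-428, L-540, SUP-HD1, U-HO1. Levels are compared between lines for the same gene and not between genes. As background of an array served the 95th percentile of its probe sets for olfactory receptors, 107 in all, whose genes lymphoid cells do not use. It lay at 4.84 in KM-H2 and 5.59 in L-1236, against 4.49 to 4.86 in the nodular sclerosis lines. L-1236 had 8609 genes above it and KM-H2 10694, whereas the nodular sclerosis lines had 10554 to 11636. L-1236 read low at high levels: among genes in the 4 highest deciles of mean level its median offset from the other lines was -0.51 to -0.76, and in the 5 lowest deciles it was 0.16 to 0.40. The offset of KM-H2 lay between -0.26 and 0.10, in 6 of the 10 deciles below that of every nodular sclerosis line, by at most 0.07. The median difference between the subtypes thus ran from 0.17 among low genes to -0.42 among high genes before any single gene is considered, and over all genes above background it was -0.17. U-HO1 stood apart in RNA quality values, with an ACTB 3′ minus 5′ difference of 2.11 and an 18S rRNA level of 11.12, against highest values of 0.54 and 7.06 in the other 6 lines.

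**Figure D1:**
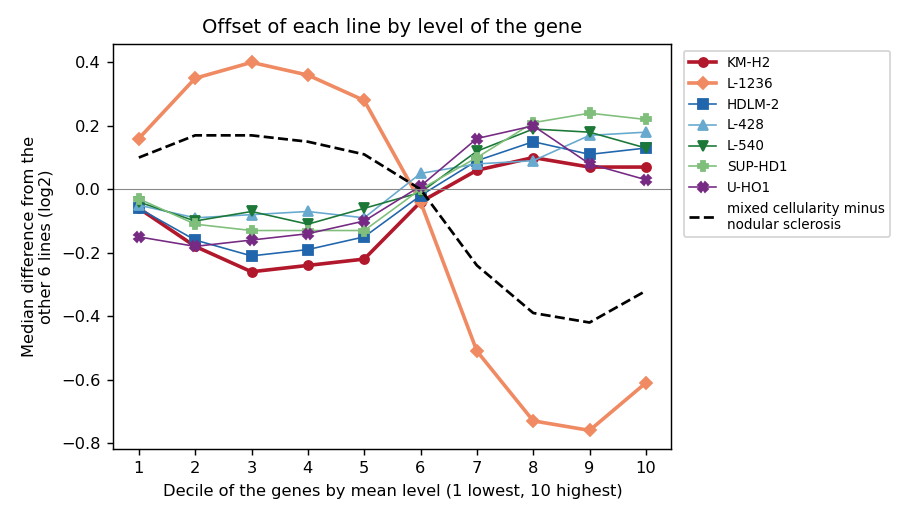
Median difference of each line from the other 6 lines (log2, vertical axis) in each decile of the 19775 genes by mean level (horizontal axis), with KM-H2 and L-1236 as thick lines, the nodular sclerosis lines as thin lines, and the median difference between the subtypes dashed. L-1236 lies above the others in the 5 lowest deciles and below them in the 4 highest, down to -0.76, whereas KM-H2 runs along the lower edge of the nodular sclerosis lines, at most 0.07 below them.

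Among 54613 probe sets tested with limma, 1 was lower and 1 was higher in the mixed cellularity lines at an adjusted p under 0.05, which is 0.00183% of the probe sets in the lower and 0.00183% in the higher direction. Without adjustment 2113 were lower and 1858 higher at p under 0.05. Each line counts as a replicate of its subtype, so these p-values measure the spread between lines, and the spread within the mixed cellularity group rests on 2 arrays. The counts moved with single lines: without L-1236 they were 22 lower and 344 higher, and without KM-H2 17 lower and 24 higher, in both cases with the lone mixed cellularity line assumed to vary as the others do. Without HDLM-2 no probe set was lower and 3 were higher, without U-HO1 2 were higher, and without L-428, L-540 or SUP-HD1 none was called in either direction.

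The probe set that fell was that of GPR183, the receptor for oxysterols that guides B-cells to the edge of the follicle and is switched off in germinal centre B-cells. GPR183 read 2.76 in KM-H2 and 3.90 in L-1236, against 8.94 in HDLM-2, 9.02 in L-428, 8.58 in L-540, 9.49 in SUP-HD1 and 9.65 in U-HO1. Both mixed cellularity lines were below background and all 5 nodular sclerosis lines were high, T-cell-derived and B-cell-derived lines alike. The difference was -5.81 ± 0.43 (SE, limma adjusted p = 0.0441), and it was still -3.92 once values under background were raised to it. GPR183 was called under 6 of 15 alternatives, with limma adjusted p of 0.00484 to 0.223. It lost the call without L-428, HDLM-2, L-540, SUP-HD1 or U-HO1 in turn (limma adjusted p of 0.223, 0.129, 0.0635, 0.215 and 0.103) and kept it without KM-H2 (0.042) or L-1236 (0.00484).

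The single probe set that rose was annotated to NIT1, an amidase that clears a deaminated form of glutathione. It read 5.95 in KM-H2 and 5.63 in L-1236, against 2.48, 2.52, 2.35, 2.58 and 2.31 in the nodular sclerosis lines. All 5 nodular sclerosis lines were below background and both mixed cellularity lines were above it, L-1236 by little. The difference was 3.34 ± 0.25 (SE, limma adjusted p = 0.0441), and it lost the call without any single nodular sclerosis line, with limma adjusted p of 0.121 to 0.223. It was 1.15 with values under background raised to it (limma adjusted p = 0.156). NIT1 has a second probe set, which overlapped between the subtypes, at 5.47 and 3.36 in KM-H2 and L-1236 against 3.03 to 5.43 in the nodular sclerosis lines. On that probe set, the brighter of the 2, the difference was 0.42 and was not called.

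To describe the contrast line by line, each gene was represented by its probe set of highest mean, and a gene was counted when both mixed cellularity lines lay at least 1 beyond all other 5 lines, with values under background raised to it. Of 14495 genes above background in 1 line or more, both lines lay above all others in 22 (0.152%) and below all others in 31 (0.214%). With any gap at all, the groups did not overlap in 285 genes with the mixed cellularity lines above (1.97%) and 888 with them below (6.13%). The balance turned after cyclic loess normalization, with 618 genes above (4.23%) and 464 below (3.17%) of 14621. The same counts were taken for every other pair of lines. The 20 other pairs had 12 to 71 genes above by at least 1 (median 22) and 2 to 55 below (median 16.5), so the mixed cellularity pair was ordinary for genes above and among the higher ones for genes below. Of the pairs, the 5 others that held L-1236 had 31 to 55 genes below, and the 15 without it had 2 to 22. With any gap at all, the 285 genes above were fewer than in each of the 20 other pairs (287 to 773) and the 888 below were more than in 19 of them (178 to 984). Cyclic loess brought the median difference between the subtypes to between -0.02 and 0.17 in every decile, and with a gap of at least 1 the mixed cellularity pair then had 28 genes above and 15 below, and the other pairs 11 to 72 and 3 to 25. With any gap, its 618 above and 464 below then stood among 349 to 906 and 329 to 552 in the other pairs. The share of genes above among both directions was 65.1% after loess and 41.5% before it. All 22 genes above kept a gap of at least 1 after loess, as did 15 of the 31 below, and none of the 31 came to overlap. Without any 1 nodular sclerosis line the counts were 25 to 36 above and 49 to 72 below. With L-1236 or KM-H2 left out, a lone line is set against 5, and the counts were 418 above and 163 below for KM-H2 alone and 473 above and 797 below for L-1236 alone.

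**Figure D2:**
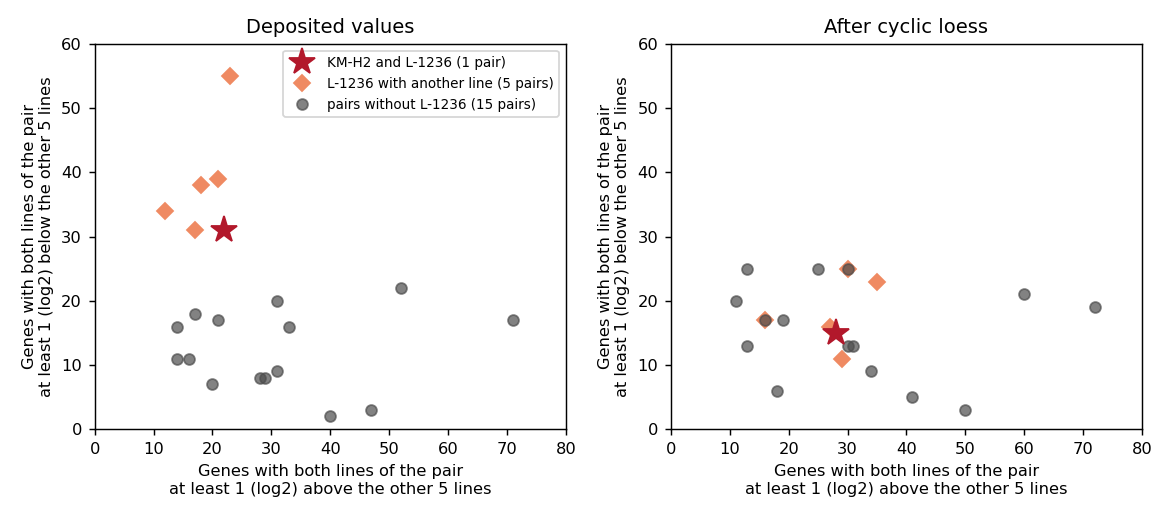
Number of genes with both lines of a pair at least 1 (log2) above the other 5 lines (horizontal axis) against the number at least 1 below them (vertical axis), for all 21 pairs of lines, with deposited values on the left and after cyclic loess on the right. The pair of mixed cellularity lines (star) has 22 above and 31 below on the left and 28 above and 15 below on the right, and on the left the pairs with L-1236 (diamonds) lie higher than all pairs without it (circles).

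The genes FCGR2A, HSPA6, FCGR2C and FCGR2B were all among the 12 genes with the widest gap above. Among the genes with a value here, they follow each other on the long arm of chromosome 1 with FCGR3B among them. The FCGR2 genes encode low-affinity receptors for the constant part of IgG: FCGR2A carries an activating motif, and FCGR2B, the form of B-cells, an inhibitory one that dampens signals of the B-cell receptor. HSPA6 encodes a stress-inducible HSP70 chaperone.

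FCGR2B read 8.94 in KM-H2 and 7.75 in L-1236, against 4.29, 3.52, 3.73, 4.43 and 4.23 in the nodular sclerosis lines. All nodular sclerosis lines were below background. The difference was 4.30 ± 0.42 (SE, limma adjusted p = 0.117), and 3.71 with values under background raised to it (limma adjusted p = 0.0208). FCGR2B passed limma under 3 of 15 alternatives, with adjusted p of 0.0093 to 0.645 over all of them, and FCGR2A under 1.

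FCGR2A stood at 7.30 in KM-H2 and 6.53 in L-1236, against 3.98, 3.20, 3.28, 3.25 and 3.14 in the nodular sclerosis lines. Again background was passed in the mixed cellularity lines alone, and the difference was 3.55 ± 0.35 (SE, limma adjusted p = 0.117). FCGR2C had 8.56 in KM-H2 and 7.92 in L-1236, against 5.64, 5.69, 6.35, 5.33 and 5.33 in the nodular sclerosis lines. The FCGR2 genes are near-identical over much of their length, so a probe set of one may bind transcripts of another, and their levels are not independent. Another probe set of FCGR2C overlapped between the groups, at 3.91 in KM-H2 and 6.56 in L-1236 against 3.66 to 4.91.

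HSPA6 belongs to another gene family, but what its probe sets can bind was not checked. It read 7.78 in KM-H2 and 7.34 in L-1236, against 4.69, 3.73, 4.97, 4.86 and 3.96 in the nodular sclerosis lines, so the groups did not overlap. The difference was 3.12 ± 0.42 (SE, limma adjusted p = 0.263). Its second probe set read 6.74 in KM-H2 but 4.87 in L-1236, and there the groups did overlap, with up to 5.01 in SUP-HD1.

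FCGR3B, an Fc receptor of neutrophils that lies between FCGR2C and FCGR2B, was at background in all 7 lines. FCRLB, a gene for an Fc receptor-like protein inside B-cells, read 6.96 in KM-H2 and 6.92 in L-1236, against 4.29, 4.65, 5.34, 6.56 and 5.0, a gap of 0.36. FCRLA, its relative, overlapped between the groups, with 8.03 in KM-H2 and 5.15 in L-1236 against 4.29 to 7.22. Of the 25 genes around FCGR2C, 17 were above background in 1 line or more. The 13 besides the block had differences of -1.46 to 1.77 with a median of 0.21, and in 1 the mixed cellularity lines lay above all others and in 1, TOMM40L, below. Copy number was not analysed here.

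**Figure D3:**
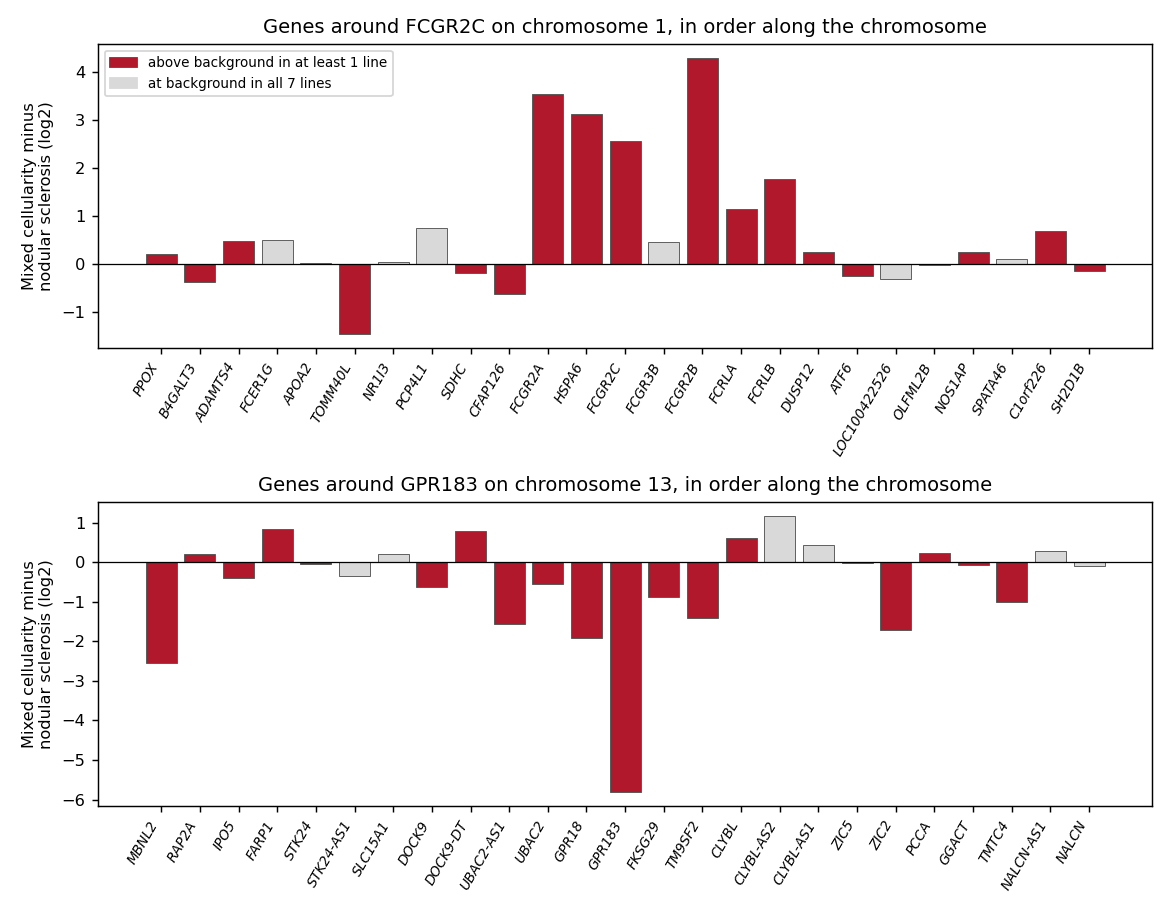
Difference of mixed cellularity minus nodular sclerosis (log2, bars) for 25 genes in chromosomal order around FCGR2C (top) and around GPR183 (bottom), with genes at background in all 7 lines in grey. Around FCGR2C the tall bars are FCGR2A, HSPA6, FCGR2C and FCGR2B at 2.57 to 4.30, and around GPR183 (-5.81) the lowest neighbour is MBNL2 at -2.55.

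Start regions of FCGR2A, HSPA6, FCGR2B and GPR183, from 250 bases before to 50 after the start, are shown as sequence context. A role of these regions in the differences was not tested. Of FCGR2B the second start is printed and the first is not. They come from RefSeq on build GRCh38.p14 and are written 5′ to 3′ along the gene. FCGR2A (chr1:161505207-161505506), HSPA6 (chr1:161524290-161524589) and the second start of FCGR2B (chr1:161662893-161663192) lie on the plus strand of chromosome 1, and GPR183 (chr13:99307350-99307649) lies on the minus strand of chromosome 13. Capitals mark matches to a heat shock element core (GAANNTTC) or a STAT site (TTCNNNGAA), both of which read the same on either strand. Of all 35116 RefSeq start regions of this length, 6.77% hold the letters GAANNTTC and 7.66% those of TTCNNNGAA.
FCGR2A: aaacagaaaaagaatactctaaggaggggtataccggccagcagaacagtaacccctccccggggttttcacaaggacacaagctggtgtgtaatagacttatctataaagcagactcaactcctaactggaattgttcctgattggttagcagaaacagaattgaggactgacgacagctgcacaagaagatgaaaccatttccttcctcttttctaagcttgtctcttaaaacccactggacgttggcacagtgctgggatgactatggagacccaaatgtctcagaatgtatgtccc
HSPA6: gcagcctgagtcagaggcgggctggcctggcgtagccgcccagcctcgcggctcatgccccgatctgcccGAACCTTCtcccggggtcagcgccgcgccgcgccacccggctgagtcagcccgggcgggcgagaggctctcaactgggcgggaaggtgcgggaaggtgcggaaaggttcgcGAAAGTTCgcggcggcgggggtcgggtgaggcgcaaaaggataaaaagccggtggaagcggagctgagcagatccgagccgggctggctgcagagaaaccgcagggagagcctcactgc
FCGR2B: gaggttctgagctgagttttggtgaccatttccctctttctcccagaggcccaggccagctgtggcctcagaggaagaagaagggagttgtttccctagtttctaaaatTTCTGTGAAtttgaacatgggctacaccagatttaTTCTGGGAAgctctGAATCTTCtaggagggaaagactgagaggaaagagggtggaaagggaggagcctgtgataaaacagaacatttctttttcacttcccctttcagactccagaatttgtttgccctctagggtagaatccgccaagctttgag
GPR183: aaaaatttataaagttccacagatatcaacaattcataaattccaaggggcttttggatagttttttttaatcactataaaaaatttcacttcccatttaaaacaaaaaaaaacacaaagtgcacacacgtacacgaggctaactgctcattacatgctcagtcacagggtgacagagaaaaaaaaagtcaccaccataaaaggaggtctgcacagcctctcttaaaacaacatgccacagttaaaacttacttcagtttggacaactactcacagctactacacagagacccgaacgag
HSPA6 held 2 matches to the heat shock element core, the site of the heat shock factors. FCGR2B held 1 such match and 2 matches to the STAT letters at its second start and neither at its first. FCGR2A and GPR183 held no match to either. The start region of HSPA6 was rich in G and C at 70.0%, against 45.0% for FCGR2A and 46.7% for the second start of FCGR2B. A match of letters is not a bound site.

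Outside chromosome 1, the widest gap above was that of SULF1, which encodes a sulfatase at the cell surface that trims heparan sulfate. SULF1 read 9.34 in KM-H2 and 10.76 in L-1236, against 5.29, 3.28, 3.20, 2.81 and 3.35 in the nodular sclerosis lines. Only HDLM-2 of the nodular sclerosis lines was above background. The difference was 6.46 ± 0.71 (SE, limma adjusted p = 0.173), all 3 probe sets separated the groups, and with values under background raised to it the difference was 5.32 (limma adjusted p = 0.00897). SULF1 also passed limma without HDLM-2, with an adjusted p of 0.0463, and failed it in the other 13 of 15 alternatives.

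PIEZO2, a mechanically gated channel, read 8.42 in KM-H2 and 8.49 in L-1236, against 3.31, 3.58, 3.46, 3.06 and 6.87 in the nodular sclerosis lines, of which U-HO1 alone was above background. Another of its probe sets overlapped, at 6.86 in KM-H2 and 5.23 in L-1236 against 2.81 to 6.02. CYSLTR1, a receptor for cysteinyl leukotrienes, had 6.21 in KM-H2 and 8.91 in L-1236, whereas the nodular sclerosis lines had 2.67 to 3.73, all under background. Their differences were 4.4 ± 1.0 for PIEZO2 and 4.51 ± 0.68 for CYSLTR1 (SE), and neither was called by limma, with adjusted p of 0.574 and 0.295.

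The rest of the 12 were less far apart, with differences of 2.50 to 2.94. MID1, a ubiquitin ligase on microtubules, read 7.29 in KM-H2 and 7.46 in L-1236, against 3.20 to 5.33. NEDD9, a docking protein of integrin signalling, read 7.71 in KM-H2 and 7.54 in L-1236, against 3.20 to 6.08. Of 3 probe sets each above background in 1 line or more, 2 separated the subtypes for MID1 and 2 for NEDD9. The third of MID1 ran the other way and overlapped, at 4.15 in KM-H2 and 4.46 in L-1236 against 3.35 to 6.11, and the third of NEDD9 was above background in L-1236 alone, at 3.17 in KM-H2 and 6.55 in L-1236 against 3.06 to 3.73. Of the 24 genes with the widest gaps, 16 had 2 or more such probe sets, which, as deposited, all separated the subtypes in 5 genes and overlapped in part in 11, and MID1 was the one with a probe set of opposite sign.

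ST3GAL5, the synthase of ganglioside GM3, stood at 6.46 in KM-H2 and 7.16 in L-1236, against 3.98 to 4.77. CYP1A1, a target of the aryl hydrocarbon receptor that oxidizes aromatic compounds, read 6.50 in KM-H2 and 6.49 in L-1236, against 3.48 to 4.32. ANO9, of the anoctamin family of membrane proteins, read 7.52 in KM-H2 and 6.52 in L-1236, against 4.10 to 4.86. For these 3 genes no or 1 nodular sclerosis line passed background, so their differences are taken from values at background.

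The 22 genes with the mixed cellularity lines above lay on 15 chromosomes, 4 of them on chromosome 1, and had differences of 1.47 to 6.46 (median 2.76). Further down were PLAT, the tissue plasminogen activator, at 4.89, and SGK1, a kinase downstream of PI3K, at 3.92. None of the 22 passed limma, whose adjusted p was 0.117 to 0.619, although the groups of each do not overlap, and for such a gene an exact two-sided permutation test over the 21 choices of 2 lines can give no p below 0.0476. L-1236 was the lower of the mixed cellularity lines in 13 of them and KM-H2 in 9.

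**Figure D4:**
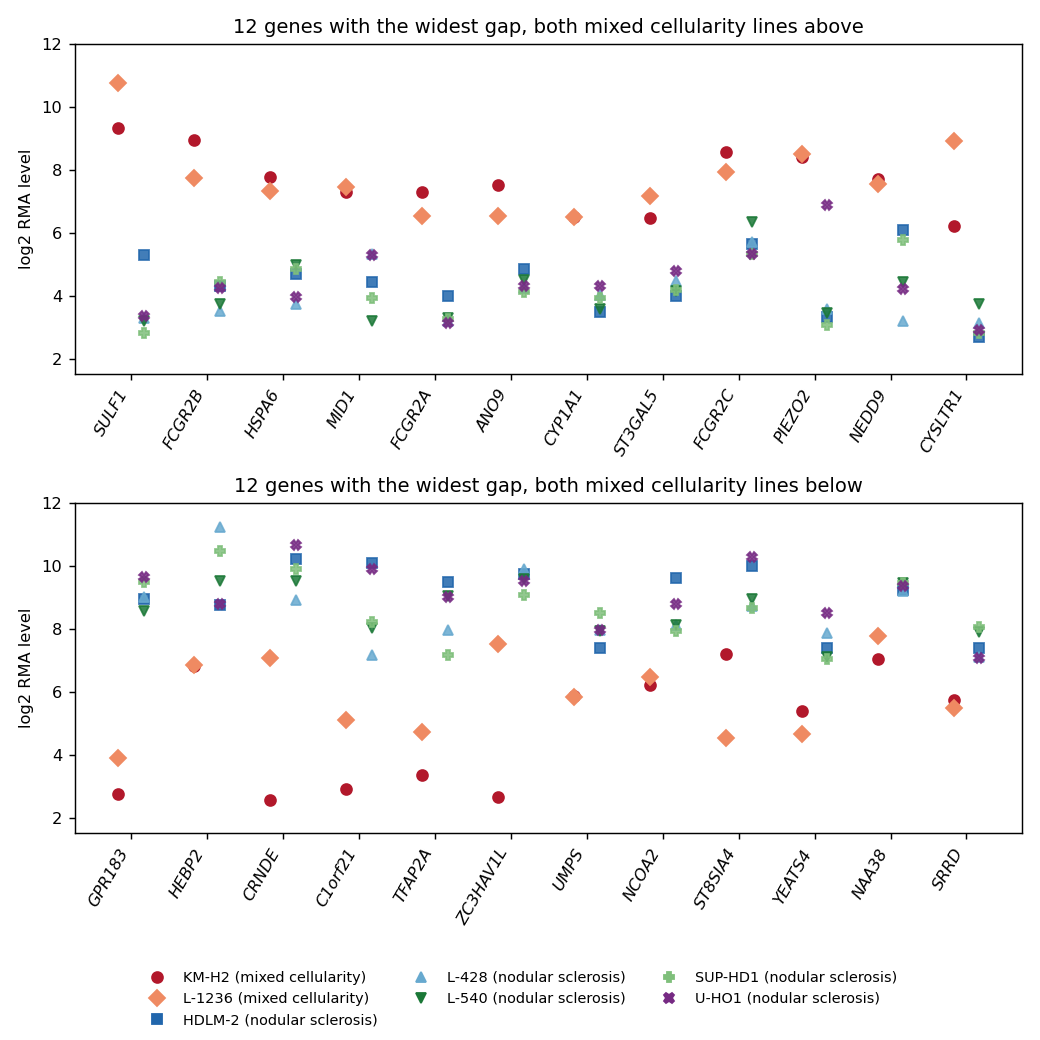
Levels (log2 RMA, vertical axis) of the 12 genes with the widest gap in each direction, with the 2 mixed cellularity lines on the left and the 5 nodular sclerosis lines on the right of each gene, 1 symbol per line. In the upper panel SULF1 is the farthest apart, and in the lower panel GPR183; for CRNDE, C1orf21 and ZC3HAV1L, KM-H2 lies far under L-1236.

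On the lower side, after GPR183, the gap was widest for HEBP2, a heme-binding protein tied to mitochondrial permeability. HEBP2 read 6.82 in KM-H2 and 6.86 in L-1236, against 8.76, 11.23, 9.53, 10.46 and 8.80 in the nodular sclerosis lines. All 7 lines expressed it, and the mixed cellularity lines were close to each other. The difference was -2.92 ± 0.70 (SE, limma adjusted p = 0.574). Another probe set of HEBP2 overlapped between the groups, with a difference of -0.10.

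CRNDE and ZC3HAV1L were high in every nodular sclerosis line, at background in KM-H2 and intermediate in L-1236. CRNDE, a long noncoding RNA common in tumours, read 2.55 in KM-H2 and 7.06 in L-1236, against 10.22, 8.91, 9.51, 9.89 and 10.66. ZC3HAV1L, a relative of the antiviral zinc finger protein ZAP, read 2.67 in KM-H2 and 7.52 in L-1236, against 9.08 to 9.90. Here the group mean describes neither mixed cellularity line: the difference of CRNDE was -7.29 for KM-H2 alone and -2.78 for L-1236 alone, and that of ZC3HAV1L was -6.90 and -2.05.

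TFAP2A, a transcription factor of neural crest and skin, read 3.36 in KM-H2 and 4.71 in L-1236, both at background, against 9.50, 7.96, 9.04, 7.16 and 9.0 in the nodular sclerosis lines. C1orf21 had 2.91 in KM-H2 and 5.09 in L-1236, also at background, against 7.18 to 10.10. Among the genes with the widest gap, GPR183, TFAP2A and C1orf21 were thus, on these probe sets, at background in both mixed cellularity lines and above it in all 5 others. Another probe set of TFAP2A overlapped, at 2.91 in KM-H2 and 4.29 in L-1236 against 3.70 to 7.19. Of 4 C1orf21 probe sets above background in 1 line or more, 2 separated the groups.

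ST8SIA4, a polysialyltransferase, read 7.2 in KM-H2 and 4.54 in L-1236, against 8.65 to 10.28, and another of its probe sets overlapped, at 6.27 in KM-H2 and 6.64 in L-1236 against 5.93 to 8.91. UMPS, which completes the synthesis of uridine monophosphate, read 5.85 in KM-H2 and 5.83 in L-1236, against 7.38 to 8.50. NCOA2, a coactivator of nuclear receptors, read 6.21 in KM-H2 and 6.46 in L-1236, against 7.94 to 9.61, and its 3 other probe sets overlapped. All 7 lines passed background for UMPS and NCOA2 on these probe sets, and for ST8SIA4 all but L-1236, which passed it on 3 others.

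YEATS4, a reader of acetylated histones, stood at 5.38 in KM-H2 and 4.67 in L-1236, against 7.03 to 8.51. NAA38, a subunit of an N-terminal acetyltransferase, read 7.04 in KM-H2 and 7.76 in L-1236, against 9.19 to 9.47. SRRD, a relative of a plant clock regulator, had 5.75 in KM-H2 and 5.47 in L-1236, against 7.07 to 8.07. After loess the gap of HEBP2, CRNDE, C1orf21, TFAP2A, ST8SIA4 and YEATS4 stayed above 1, and that of UMPS, NCOA2, NAA38, SRRD and ZC3HAV1L was 0.64 to 0.93.

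The 31 genes below had differences of -5.81 to -1.53 (median -2.09) and lay on 16 chromosomes. Apart from GPR183 none passed limma. Around GPR183 on chromosome 13, 17 other genes above background had differences of -2.55 to 0.84 (median -0.54). Among them TM9SF2, a membrane protein of endosomes and Golgi, read 8.46 in KM-H2 and 7.91 in L-1236, against 9.41 to 9.86, and MBNL2, a splicing factor, 5.64 and 4.81 against 6.35 to 9.50. GPR18, a receptor next to GPR183, overlapped between the groups, since 3 nodular sclerosis lines were at background as well.

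Gene lists were then read against the shares of all genes, 1.97% above and 6.13% below without overlap, and against the median difference of all genes, -0.17. After loess the shares of all genes to read them against were 4.23% above and 3.17% below, and the median was 0.04. Only genes above background in 1 line or more were counted. These are descriptions, since no member of a list was called by limma. Among all 64 genes named by rule, 34 had 2 or more probe sets above background in 1 line or more. As deposited, these all separated the groups in 7 genes and overlapped in part in 27. Set alone against the nodular sclerosis lines, KM-H2 and L-1236 gave medians of opposite sign in 10 of the 22 lists, both below 0 in 10 and both above 0 in 2. For such a median, a gene counted if it was above background in that line or in a nodular sclerosis line. Members above background only in the other mixed cellularity line dropped out, so the genes behind these medians can differ. Over all genes these medians were -0.08 for KM-H2 and -0.35 for L-1236. Opposite signs against 0 therefore do not by themselves show that the lines disagree on a list.

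Genes that characterize HRS cells had the lowest median with both lines together, -0.95 over 20 genes. It was -0.34 for KM-H2 alone and -0.81 for L-1236 alone, and neither line had its lowest median here: that was -1.07 for KM-H2, in germinal centre and plasma cell genes, and -1.88 for L-1236, in MHC class II genes. In 3 of the 20 (15%) both mixed cellularity lines lay below all others. MSC, which blocks E proteins and with them the B-cell program, read 6.94 in KM-H2 and 5.03 in L-1236, against 9.32, 8.03, 7.52, 9.10 and 7.33. LGALS1, the galectin that HRS cells release against T-cells, read 12.27 in KM-H2 and 10.44 in L-1236, against 12.38 to 13.14. BATF, an AP-1 factor, differed by -0.46. CCL17, the chemokine that draws CCR4-positive T-cells, overlapped through L-540, at 7.34 in KM-H2 and 6.84 in L-1236 against 13.07, 11.76, 6.64, 9.46 and 10.09. TNFRSF8, which encodes CD30, read 7.25 in KM-H2 and 6.13 in L-1236, against 9.47, 8.64, 10.99, 4.36 and 9.15, and IRF4 was high throughout, at 10.34 in KM-H2 and 9.61 in L-1236 against 10.28 to 10.79. CD30 and IRF4 transcripts were above background in both mixed cellularity lines. After loess the median was -0.56, with 2 of 20 below.

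B-cell genes had a median of 0.05 over 28 genes (0.24 for KM-H2 alone, -0.28 for L-1236 alone), with 1 above and 1 below (3.57% each). POU2F2, the octamer factor OCT2, read 6.11 in both KM-H2 and L-1236, against 5.15 to 5.78. Of its 6 probe sets above background in 1 line or more, 1 separated the groups. Another ran the other way and overlapped, with a difference of -0.35. MS4A1, which encodes CD20, was at background in all 7 lines, and CD79A read 3.99 in KM-H2 and 5.48 in L-1236 on its brighter probe set, both under background, against 4.43 to 5.34. Its other probe set read 4.97 in KM-H2, just above background, and 5.23 in L-1236, under it, against 3.73 to 5.21. A low level of such genes is known of HRS cells, but MS4A1 and CD79A do not stand for the whole list. Of its 28 genes, 21 were above background in KM-H2 and 12 in L-1236, against 19 to 25 in the nodular sclerosis lines. Germinal centre and plasma cell genes had a median of -0.65 over 17 genes (-1.07 for KM-H2 alone, -0.40 for L-1236 alone), with 3 below (17.6%). XBP1, the factor of the secretory program of plasma cells, read 6.63 in KM-H2 and 7.09 in L-1236, against 9.08, 8.58, 8.48, 9.52 and 8.07, a gap of 0.98. FKBP11, a chaperone of secretory cells, read 9.0 in KM-H2 and 8.28 in L-1236, against 9.29 to 10.60, and ELL2, an elongation factor of plasma cells, differed by -0.80. XBP1 and ELL2 each had other probe sets that overlapped and ran the other way, by 0.04 for XBP1 and by 0.05 and 0.56 for ELL2. Of 3 FKBP11 probe sets, 2 separated the groups. After loess 2 of the 17 lay below (11.8%).

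T- and NK-cell genes, myeloid genes and stromal and epithelial genes served as markers of other cell types. Of 29 T- and NK-cell genes none separated the groups on its probe set of highest mean. Their median difference was 0.02 (-0.44 for KM-H2 alone, -0.01 for L-1236 alone). LEF1, a WNT effector, read 10.12 in KM-H2 and 7.49 in L-1236, against 3.39, 7.01, 3.20, 7.75 and 3.63. Another of its probe sets separated the groups, at 6.24 in KM-H2 and 5.78 in L-1236 against 4.15 to 5.17. EOMES, a T-box factor, read 7.28 and 9.02 in the same mixed cellularity lines, against 5.71, 8.72, 6.40, 3.45 and 3.42. Of 9 myeloid genes above background, only FCGR2A separated the groups. Of 13 stromal and epithelial genes only COL1A1 did, by 0.05, on 1 of 4 probe sets above background in 1 line or more.

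Nodular sclerosis takes its name from fibrosis, so genes of fibrosis and extracellular matrix were examined. With values under background raised to it, no gap was wide. Their median was 0.19 over 29 genes with both lines together. It was 0.59 for KM-H2 alone and -0.28 for L-1236 alone, where all genes had -0.08 and -0.35. Each line thus lay above its median of all genes, L-1236 by little. In 2 genes (6.90%) both lines lay above all nodular sclerosis lines and in none below. These were MMP9, a collagenase, with 6.87 in KM-H2 and 5.70 in L-1236 against 4.58 to 5.68, and COL1A1, with 6.50 and 6.71 against 6.01 to 6.45. Those gaps were 0.02 and 0.05. Of 4 COL1A1 probe sets above background in 1 line or more, 1 separated the groups. Another read 9.08 in KM-H2 and 4.29 in L-1236, against 3.10 to 5.38. The largest differences above were those of SPARC (4.32) and COL4A1 (3.0), for which KM-H2 alone passed background. SPARC read 9.73 in KM-H2 and 4.54 in L-1236, against 2.52 to 3.63. COL4A1 read 7.32 and 5.17 in these lines, against 2.77 to 3.52. The largest difference below was that of SPP1 (-2.94), and there the groups overlapped. In all, 19 of the 29 genes had a positive difference. Chemokines, which shape the infiltrate, had a median of 0.21 over 19 genes with both lines together, and none separated the groups. It was -0.10 for KM-H2 alone and -0.28 for L-1236 alone, where members above background only in KM-H2 did not count for L-1236. CXCL10, which attracts CXCR3-positive cells, read 10.01 in KM-H2 and 10.90 in L-1236, against 3.82, 6.31, 4.15, 11.55 and 9.37. CXCL11, its relative, read 7.62 in KM-H2 but was below background in L-1236 at 4.61, against 2.41 to 2.97. Of 21 interleukins and colony-stimulating factors, IL6 alone lay above, by 0.08, with 8.68 in KM-H2 and 8.94 in L-1236 against 8.51, 6.87, 3.66, 8.60 and 6.02.

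TNF receptors and ligands had a median of 0.32 over 31 genes (0.57 for KM-H2 alone, 0.10 for L-1236 alone), and 3 lay above (9.68%). TNF read 8.10 in KM-H2 and 7.52 in L-1236, against 6.83, 6.53, 3.82, 6.30 and 7.03. CD40, the receptor by which B-cells receive T-cell help, read 9.51 in KM-H2 and 9.49 in L-1236, against 8.59, 8.67, 6.55, 9.16 and 8.07. Of 4 CD40 probe sets above background in 1 line or more, 2 separated the groups. TNFRSF13C, the BAFF receptor, was above by 0.04. The differences were 1.71 ± 0.84 for TNF and 1.29 ± 0.65 for CD40 (SE, limma adjusted p = 0.724 and 0.732), and the median of the list was 0.53 after loess.

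Signalling genes lay below about as often as all genes did (6.13%). Among 29 NFkB pathway genes, 2 lay below (6.90%): TRAF6, a ubiquitin ligase upstream of NFkB, with 6.37 in KM-H2 and 5.95 in L-1236 against 6.68 to 7.51, and CYLD, the deubiquitinase that restrains it, with 5.38 and 7.65 against 7.68 to 9.04. For CYLD 5 of 7 probe sets separated the groups, and for TRAF6 1 of 2. Among 34 genes of cytokine receptors and JAK-STAT signalling, 2 lay below (5.88%). After loess 1 of the NFkB genes and none of the others did. IL3RA, the IL3 receptor chain, read 4.38 in KM-H2, below background, and 5.89 in L-1236, against 8.77, 7.98, 6.22, 8.23 and 9.31. STAT5A read 6.71 and 6.23 in KM-H2 and L-1236, against 6.75 to 9.21, a gap of 0.04. SOCS3, a feedback target of STAT3 named after its values were seen, read 4.38 in KM-H2 and 5.11 in L-1236 on its brightest probe set, both below background, against 9.32, 5.52, 10.63, 9.59 and 8.45, with L-428 close to them. On another probe set L-1236 passed background at 6.0, above L-428 at 5.15, and the groups overlapped, as they did on both remaining ones. Genes around CD274 and JAK2 on chromosome 9 had a median of -0.71 over 16 genes and only UHRF2 lay below, by 0.01. CD274, which encodes PD-L1, read 6.04 in KM-H2 and 8.36 in L-1236, against 11.28, 6.48, 8.49, 11.52 and 5.79.

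Interferon response genes had a median of -0.65 over 35 genes (-0.77 for KM-H2 alone, -0.64 for L-1236 alone), with 4 below (11.4%). IRF2, a repressor of interferon genes, read 5.92 in KM-H2 and 5.09 in L-1236, against 8.31, 6.86, 8.03, 7.36 and 7.01. IRF9, the DNA-binding part of the interferon-activated complex, read 6.29 in KM-H2 and 6.52 in L-1236, against 7.18 to 8.43. ISG20, an exonuclease, had 7.29 and 7.66 in these lines, against 8.25 to 10.68. Another probe set of ISG20 overlapped between the groups. After loess the median was -0.50 and 1 gene of the list lay below (2.86%). MHC class I genes had a median of 0.05 over 18 genes (0.23 for KM-H2 alone, -0.44 for L-1236 alone), and TAPBP, which helps load peptides, lay above by 0.12. Of 3 TAPBP probe sets above background in 1 line or more, 1 separated the groups.

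For MHC class II genes the mixed cellularity lines went apart. The list of 17 genes had a median of 0.70 for KM-H2 alone against the nodular sclerosis lines and -1.88 for L-1236 alone. HLA-DRA read 12.95 in KM-H2 and 7.18 in L-1236, against 13.41, 12.56, 10.82, 12.04 and 11.79, and CIITA, the master regulator of the class, 7.37 and 4.11 against 4.58 to 6.25. Neither gene separates the subtypes, and the difference of HLA-DRA was 0.83 for KM-H2 alone and -4.94 for L-1236 alone.

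Adhesion and costimulatory molecules had a median of -0.03 over 32 genes, with 1 above (3.12%) and 3 below (9.38%), against 1.97% and 6.13% of all genes. After loess 1 lay above and 1 below (3.12% each), against 4.23% and 3.17% of all genes. ITGA5, the fibronectin receptor chain, read 7.10 in KM-H2 and 6.38 in L-1236, against 5.34, 5.25, 5.64, 5.64 and 4.70. CD86, a ligand of CD28, read 6.69 in KM-H2 and 8.91 in L-1236, against 10.54, 9.60, 9.55, 9.52 and 9.61. CD47, the signal against phagocytosis, stood at 7.37 in KM-H2 and 8.83 in L-1236, against 8.98 to 11.50. Within this list these gaps were 0.74 for ITGA5, 0.61 for CD86 and 0.15 for CD47. Of the probe sets above background in 1 line or more, 2 of 3 separated the groups for CD86 and 3 of 6 for CD47.

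Cell cycle genes had 6 of 34 members below (17.6%), the highest share of these lists together with germinal centre and plasma cell genes, and a median of -0.38 (-0.32 for KM-H2 alone, -0.83 for L-1236 alone). MYC read 9.35 in KM-H2 and 9.74 in L-1236, against 10.82, 10.60, 12.10, 10.26 and 10.11. CCND2, a D cyclin, read 11.22 in KM-H2 and 7.99 in L-1236, against 11.38 to 11.82, and CDKN1B, an inhibitor of cyclin-dependent kinases, 8.30 and 8.42 against 8.55 to 10.21. CDK1, MCM3 and BUB1 were the others. Of 4 CCND2 probe sets above background in 1 line or more, 1 separated the groups. After loess the median was -0.09 with 3 below (8.82%). Genes that every cell uses had a median of -0.21 over 23 genes and 0.10 after loess, and YWHAZ and EMC7 lay below (8.70%). Of 22 apoptosis regulators, FADD, the adaptor of death receptors, lay below, with 7.21 in KM-H2 and 6.77 in L-1236 against 7.61 to 8.41.

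NKL homeobox genes, the subject of the study, did not separate the subtypes in any of 20 genes. MSX1 read 7.52 in KM-H2 but 4.77 in L-1236, below background, against 4.06, 5.15, 3.11, 5.91 and 3.32, and NKX6-1 read 6.79 in L-1236 but 3.99 in KM-H2, against 3.03 to 4.10. Nor did any of 11 genes of the NKX2-2 network, of which TLE4, a corepressor, read 3.46 in KM-H2 and 5.09 in L-1236, against 7.37, 5.81, 3.03, 6.08 and 7.59.

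**Figure D5:**
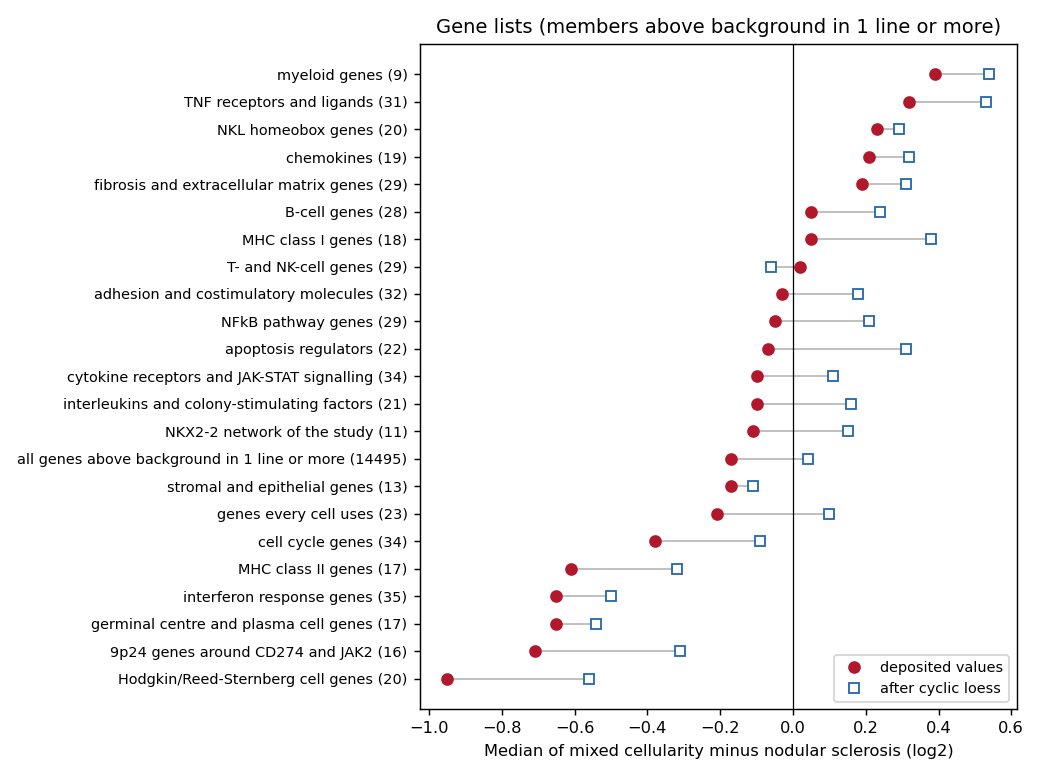
Median difference of mixed cellularity minus nodular sclerosis (log2, horizontal axis) of each gene list and of all genes, with deposited values as filled circles and values after cyclic loess as open squares; the number of genes above background in 1 line or more stands in brackets. HRS cell genes have the lowest median in both, -0.95 and -0.56, and the median of all genes moves to 0.04 after loess.

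The lines of T-cell origin were left out to set B-cell-derived lines against each other, KM-H2 and L-1236 against L-428, SUP-HD1 and U-HO1. With fewer lines to lie beyond, 49 genes lay above by at least 1 and 134 below. The medians of the HRS cell genes and the interferon response genes were -0.69 and -0.39, and that of all genes was -0.19. Only genes above background in at least 1 of these lines counted. GPR183 differed by -6.06 and SULF1 by 6.90 in this set of lines, both with a limma adjusted p of 0.165, so neither was called.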

How the data were processed

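Total RNA of 7 HL lines was hybridised to HG U133 Plus 2.0 arrays. The authors deposited log2 values made by RMA, with background correction and quantile normalization, and the submitters' notes name RMA, affy and limma, with no version given in the sources used here. No scanner files, detection calls or depths were used, so the number of arrays and the signal over background limit the precision. Symbols came from the platform annotation, updated by gene identifier with RefSeq: 41097 probe sets had 1 symbol, 1801 had several and 11777 none, and the last groups were left out of values per gene. Start regions were those of RefSeq on GRCh38.p14, and FCGR2C was among the genes not matched there.

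The subtypes were compared with limma 3.58.1 (lmFit and eBayes, two-sided, Benjamini-Hochberg) over 54613 probe sets, leaving out 62 controls. The fit was also run on simulated data with independent errors. These held no offset by level, so the run cannot show how the fit behaves under the offset of L-1236. Named genes were the 12 with the widest gap in each direction and, in each of 22 lists, up to 3 members whose groups did not overlap, or otherwise the 2 with the largest difference. NIT1, SOCS3, CCL17, TNFRSF8, IRF4, CD274, CIITA, CD79A, MS4A1, PLAT, SGK1, SPARC, COL4A1, SPP1, FCRLA, FCRLB, TOMM40L and the neighbours of GPR183 were named after their values were seen. Lines and lists were chosen with earlier results of these data known. The alternatives were other normalizations, filters, weights, backgrounds, gaps and probe sets, and leaving out lines. Analyses used R 4.3.3 and Python 3.11.15.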

Additional observations from a re-analysis of the deposited data

Results flagged for a closer look

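Among the 64 genes named by rule, 5 (7.81%) had a nodular sclerosis line far from the other 4. The check would flag about 1 in 20 groups of independent values. That rate does not apply here, since the genes were picked from these same values. HDLM-2 was the line in 3 of them, L-540 in 1 and U-HO1 in 1. HDLM-2 was high for SULF1, at 5.29 against 2.81 to 3.35 in the other 4 nodular sclerosis lines, and for CD86, at 10.54 against 9.52 to 9.61. It was also high for FCGR2A, at 3.98 against 3.14 to 3.28, all of them under background. U-HO1 was high for PIEZO2, at 6.87 against 3.06 to 3.58. L-540 was low for TNF, at 3.82 against 6.30 to 7.03. In CD86 the high line and in TNF the low line widened the difference between the subtypes, and in SULF1, FCGR2A and PIEZO2 it narrowed it. The mixed cellularity group of 2 lines is too small for such a check.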

How the results depend on the processing

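Of 832 differences of named genes under the alternatives, 769 stayed within the spread between lines, 63 moved by more, and 3 changed sign, in 3 genes. Of 286 list medians 260 stayed within it and 60 changed sign, in 15 lists. Probe sets called by limma were 1 higher and 1 lower with the deposited values. They were 2 higher with quantile normalization applied again, 4 with an intensity trend and 5 with values below background raised to it. Higher and lower calls both numbered 0 with each array minus its median, with cyclic loess, with array weights and without HDLM-2 and L-540, and higher calls numbered 0 among probe sets above background in at least 2 lines. Without 1 line, higher calls ranged from 0 to 344 and lower calls from 0 to 22. Genes with a gap of at least 1 were 22 above and 31 below. Quantile normalization applied again gave 16 below (66.7% of both directions above, against 41.5% as deposited), cyclic loess 15, and the mean of all probe sets 18. Leaving out HDLM-2 and L-540 gave 49 above and 134 below. A gap of 0.5 gave 62 and 210 and a gap of 2 gave 3 and 1. A background at the 99th percentile gave 12 above, and without probe sets ending in _x_at or _s_at, which can bind related genes, there were 13 above. Each array minus its median gave 18 above and 40 below (31.0% above). Without 1 line the counts ranged from 25 to 473 above and from 49 to 797 below. The cause of these shifts was not tested. No paired analysis was possible because the labels number no replicates and every line was hybridised once. Signal over background limits what can be read of low genes, most of all in L-1236.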

Other observations

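SLC8A1 and LRIG3, outside the lists and the widest gaps, had low p-values in limma before adjustment. All genes of this section were chosen after their values were seen. SLC8A1, the sodium-calcium exchanger, has 11 probe sets, of which one read 6.50 in KM-H2 and 5.34 in L-1236, against 2.25 to 2.72 in the nodular sclerosis lines, a difference of 3.43 (limma adjusted p = 0.142). Its brightest probe set read 5.20 and 5.42 in the same mixed cellularity lines, against 3.56 to 4.97. Both values of L-1236 lay under its background. LRIG3, a membrane protein related to inhibitors of receptor tyrosine kinases, was at background in both mixed cellularity lines, at 2.61 in KM-H2 and 2.48 in L-1236, against 4.98 to 6.37 in the nodular sclerosis lines, a difference of -3.23 (limma adjusted p = 0.235).

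LGALS3, which encodes galectin 3, was at background in KM-H2 at 3.36 and in L-1236 at 3.97, and also in U-HO1 at 3.28, against 12.11 in HDLM-2, 10.81 in L-428, 9.48 in L-540 and 10.48 in SUP-HD1. Its difference was -5.57, the largest in size among the adhesion and costimulatory molecules, and the groups overlapped through U-HO1. RGS1, a regulator of G protein signalling in B-cells, read 10.57 in KM-H2 and 10.53 in L-1236, against 2.58 in L-540 and 8.24 to 9.83 in the other 4 nodular sclerosis lines, a gap of 0.70. CYP1B1, which like CYP1A1 is a target of the aryl hydrocarbon receptor, read 9.36 in KM-H2 and 10.89 in L-1236, against 7.15, 6.08, 2.80, 7.46 and 11.19, so that U-HO1 overlapped with them.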
